A study of Mus musculus with 4 samples.

Results

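Transcripts of axon guidance ligands and receptors were examined in RNA that came down with Cpeb4 from the V-SVZ (ventricular-subventricular zone), a birthplace of neurons that lines the lateral ventricles. Members were taken by gene symbol: Eph receptors (Epha, Ephb), ephrins (Efna, Efnb), semaphorins (Sema), plexins (Plxn), neuropilins (Nrp), Slits, Robos, netrins (Ntn, Ntng), Dcc and Unc5 receptors. The rule found 70 genes among 53379 in the deposited table, 36 of them ligands and 34 receptors. Lysates came from wild-type mice of the CD1 strain, taken on postnatal day 7 or 8, and were precipitated either with an antibody against Cpeb4, an RNA-binding protein of the cytoplasmic polyadenylation element-binding family, or with control IgG. Each of 2 numbered experiments gave 1 Cpeb4 and 1 IgG library, so that n = 2 per antibody throughout. The comparison asked which transcripts were recovered with Cpeb4 beyond the background of IgG. No input library was analysed here. Whether the experiments drew on different animals is not in the labels, and p-values therefore reflect only how far these libraries vary, which may be technical.

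Guidance cues are proteins that steer growing axons and migrating cells by attraction or repulsion. Ephrins bind Eph receptor tyrosine kinases on touching cells and can signal in both directions, semaphorins act through plexins and, for the secreted class, neuropilins, Slits repel through Robo receptors, and netrins attract through Dcc and repel through Unc5. In the V-SVZ these families are known for steering neuroblasts along the rostral migratory stream towards the olfactory bulb, with Slits as repellents, and ephrins and Ephs are known to affect proliferation of the progenitors. Cpeb proteins bind uridine-rich elements in 3′ untranslated regions and control poly(A) tail length and translation, so recovery of a transcript in such a precipitate describes binding or co-purification of its RNA and not its total level in the tissue.

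The libraries held 24483742 to 35037171 reads on genes for Cpeb4 and 22486721 to 24094241 for IgG. The mRNA of the antibody's target, Cpeb4, was at 26.7 and 38.3 FPKM (fragment counts corrected for gene length and library depth) in the Cpeb4 libraries of experiments 1 and 2, against 9.04 and 9.66 FPKM in IgG (log2 1.67, SE 0.13, limma adjusted p = 9.59e-08). Markers of all 9 cell classes checked were detected, none at 0 in every library, and the lowest, the choroid plexus gene Kl, averaged 0.495 FPKM. Summed neuroblast markers lay at 578 to 580 FPKM in Cpeb4 and 403 to 404 FPKM in IgG libraries, with 5 of 8 called higher and none lower. Neural stem cell and astrocyte markers lay at 1056 to 1144 FPKM in Cpeb4 against 604 to 632 FPKM in IgG. Of these 7, 5 were called higher and 1 lower (Nes), and Slc1a3 alone averaged 484 FPKM in Cpeb4 and 242 FPKM in IgG. Oligodendrocyte markers lay at 441 to 466 FPKM in Cpeb4 and 299 to 313 FPKM in IgG, with 5 of 5 called higher. Blood markers lay at 141 to 159 FPKM in Cpeb4 and 209 to 231 FPKM in IgG, with 3 of 3 called lower. Ependymal markers lay at 41.5 to 49.0 FPKM in Cpeb4 and 57.5 to 59.0 FPKM in IgG, with 2 of 4 called lower. Of 4 transit amplifying markers 3 were called higher and 1 lower, and of 4 microglia markers 1 higher and 1 lower. Among 5 endothelial and mural markers 1 was called higher, and of 2 choroid plexus markers tested none was called. Over all tested genes 38.8% were called higher and 11.6% lower. The part of these cell classes in the values below was not tested. The tissue was lysed whole, so the values do not show which cells gave the RNA. They describe RNA recovered with each antibody and not the number of cells of a type.

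Of the 70 members, 64 reached 1 FPKM in 2 or more libraries and were tested. The 6 others (Epha1, Epha2, Robo3, Ntn5, Ntng2 and Sema3g) did not exceed 0.866 FPKM and had 3 to 72 reads per library. Robo4 was the 1 member that passed this filter through the IgG libraries alone. With limma and Benjamini-Hochberg adjustment over all tested genes, 26 of the 64 were higher in Cpeb4 precipitates (40.6%), 7 were lower (10.9%) and 31 were not called. Over all 15745 tested genes, 38.8% were higher and 11.6% lower, so the shares among guidance genes were near those of genes in general. The median log2 fold change was 0.17 for the members and 0.19 for all tested genes. Both Cpeb4 libraries lay above both IgG libraries for 34 members (53.1%; 53.2% of all tested genes) and below them for 16 (25.0%; 22.7% of all tested genes), and the antibodies overlapped for 14. At least a 2-fold rise on the FPKM + 1 scale accompanied the call for 5 members (7.81%; 10.8% of all tested genes), Epha3, Nrp1, Efnb2, Sema3d and Sema3c.

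**Figure D1:**
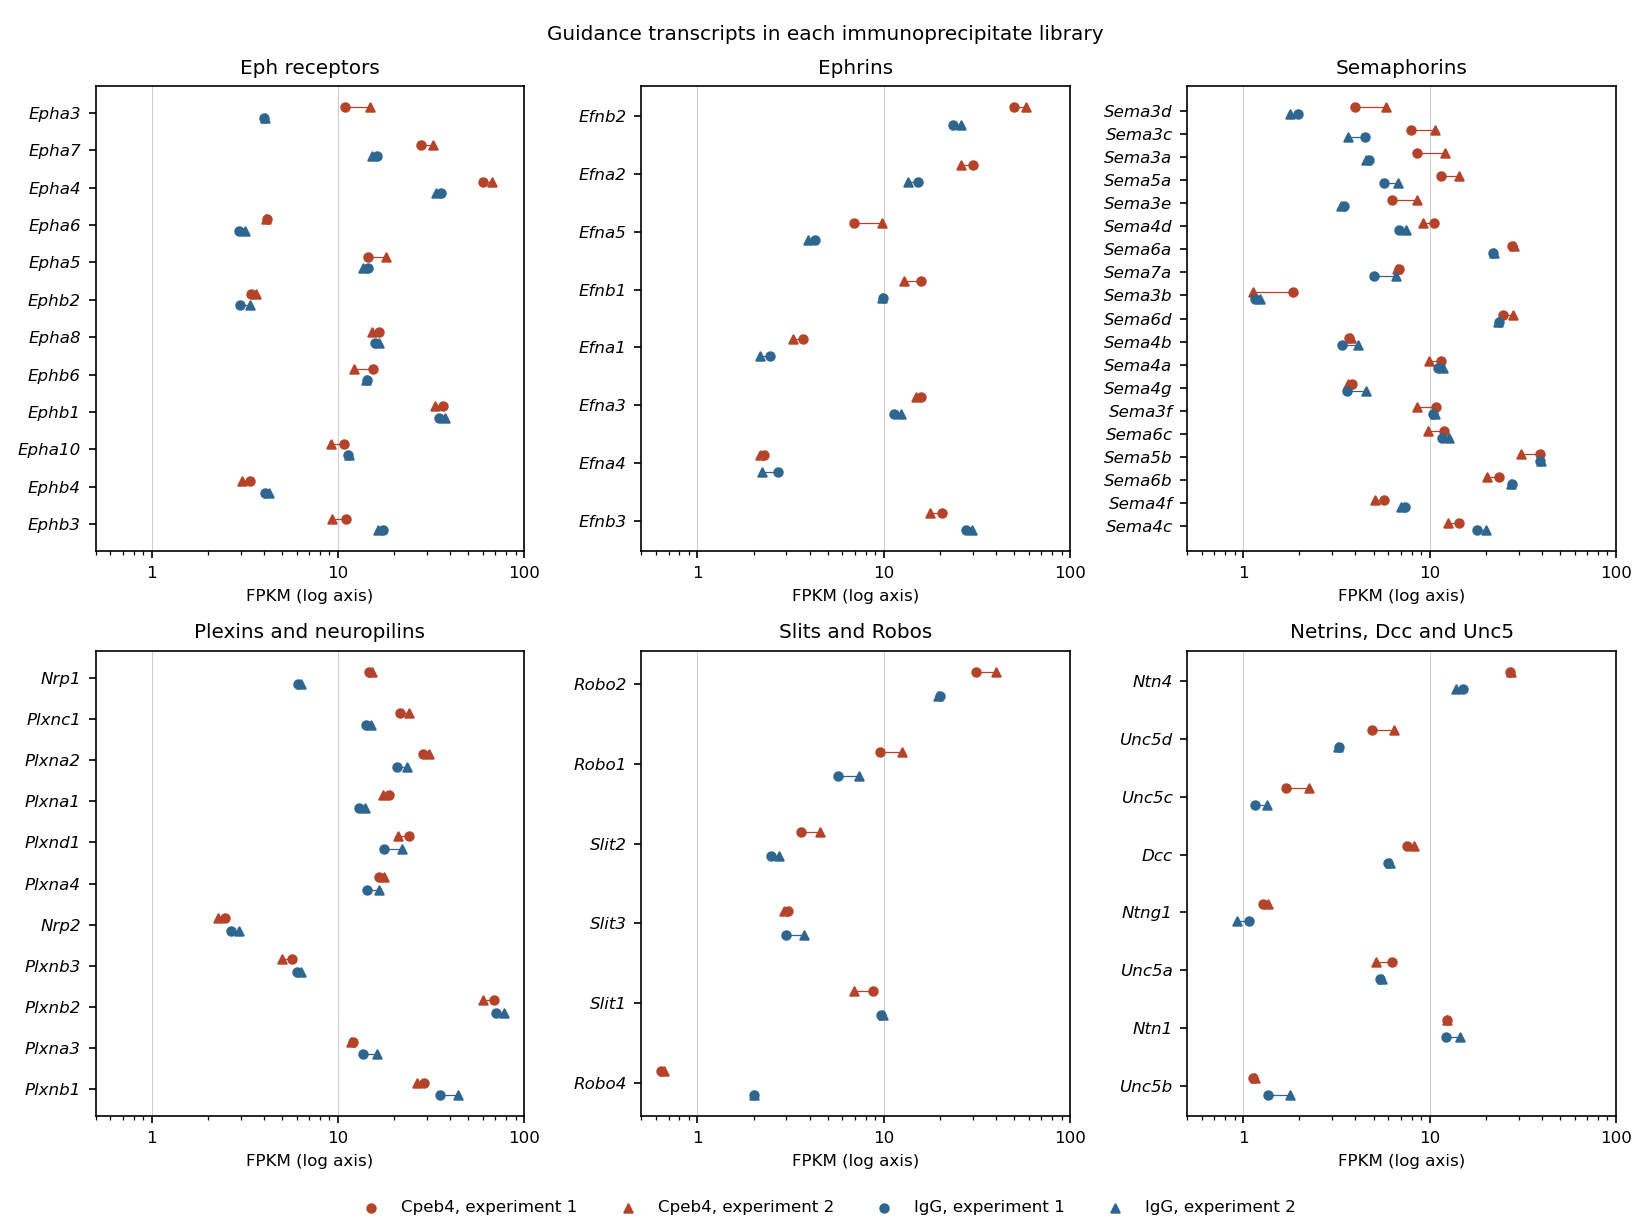
FPKM of each tested member in each library, on a log axis, by family; red is Cpeb4, blue is IgG, circles are experiment 1 and triangles experiment 2. Within each panel members run from the largest positive change at the top to the largest negative at the bottom, with Epha3 at 10.9 and 14.9 FPKM in Cpeb4 against 4.01 and 4.07 FPKM in IgG and Ephb3 at 11.1 and 9.24 FPKM in Cpeb4 against 17.3 and 16.5 FPKM in IgG.

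The share of higher against lower calls moved with the library scaling. The values above use the authors' scaling; with libraries scaled to their read totals, by upper quartile, by trimmed mean of M-values or centred on the median of tested genes, the median of all tested genes was -0.24, -0.18, -0.04 and -0.11 on the log2 scale in place of 0.19. By read totals 13 members were higher and 31 lower (17.5% and 42.4% of all tested genes), and by upper quartile 14 and 28 (19.6% and 37.0%). By trimmed mean of M-values 17 were higher and 21 lower (25.6% and 25.6% of all tested genes), and by median centring 17 and 26 (22.9% and 30.8%). All 7 lower members were lower under all 5 scalings (10.9%; 11.6% of all tested genes), and so were all 1822 genes called lower. The other 4 scalings moved the values down, so a lower call was bound to be kept and its hold is no support. Under all 5 scalings, 13 members were higher (20.3%; 17.3% of all tested genes). These 13 were the receptors Epha3, Epha4, Epha7 and Nrp1 and the ligands Efna2, Efna5, Efnb2, Ntn4, Sema3a, Sema3c, Sema3d, Sema3e and Sema5a. The other 13 higher members, Robo1, Robo2, Slit2, Efna1, Efna3, Efnb1, Dcc, Unc5d, Plxna1, Plxna2, Plxnc1, Sema4d and Sema6a, lost their call with libraries scaled to read totals (limma adjusted p between 0.0583 and 0.944). A call given below as held under every scaling refers to these 5.

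**Figure D2:**
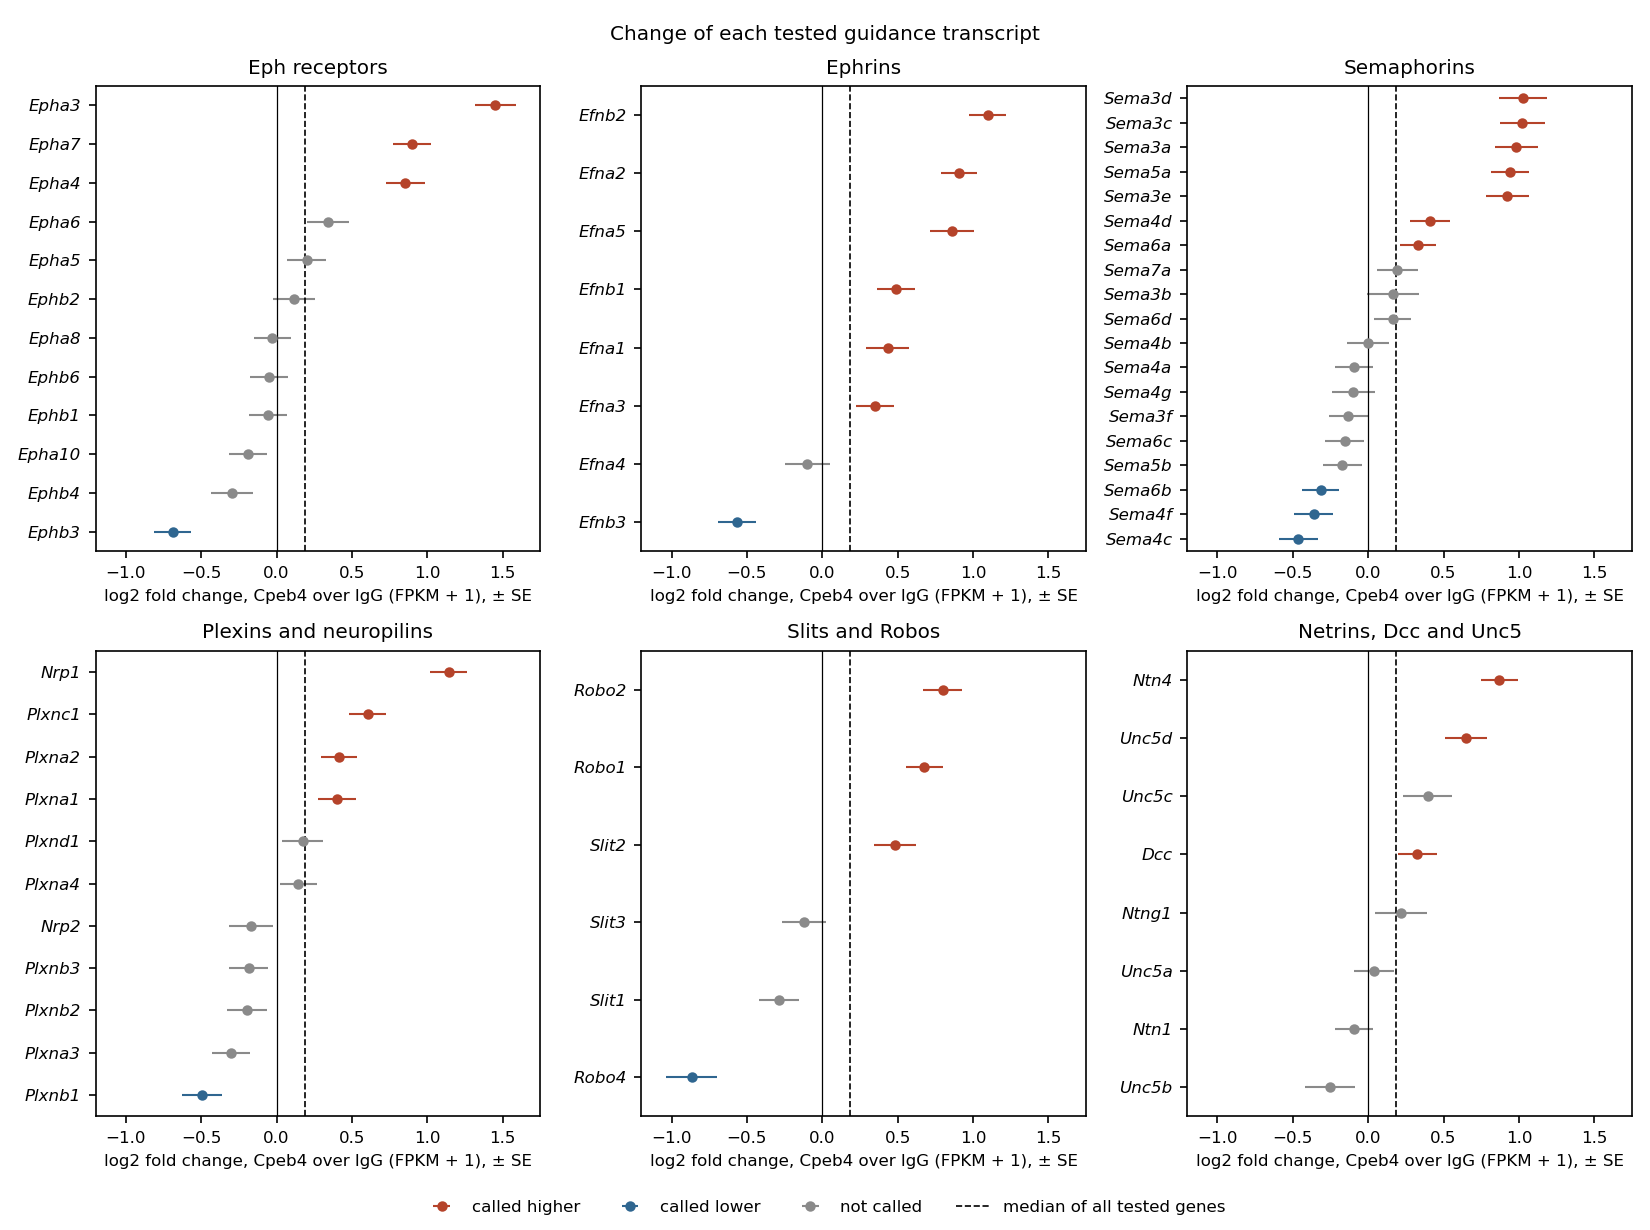
Log2 fold change of Cpeb4 over IgG on the FPKM + 1 scale, with its standard error from limma (n = 2 per antibody), for the 64 tested members by family; the dashed line is the median of all tested genes at 0.19. Members of every family stand on both sides of 0, from 1.45 for Epha3 to -0.87 for Robo4.

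Among the ephrins, the ligands of Eph receptors, 6 of 8 were higher, 1 was lower and 1 was not called, with a median log2 fold change of 0.46. Over all tested genes 38.8% were higher and 11.6% lower, with a median of 0.19. The class B ephrins, which cross the membrane and can signal back into their own cell, went both ways. Efnb2, an ephrin of neural progenitors and arteries, was the most abundant ephrin, at 49.9 and 58.1 FPKM in Cpeb4 libraries against 23.5 and 25.8 FPKM in IgG. The antibodies were well apart in both experiments, and Efnb2 was 2.14-fold higher with 1 FPKM added to each value (log2 1.10, SE 0.12, limma adjusted p = 2.07e-06), a call held under every scaling. Efnb3 was at 20.5 and 17.7 FPKM in Cpeb4 against 27.7 and 29.6 FPKM in IgG. It was the only lower ephrin (log2 -0.56, SE 0.13, limma adjusted p = 0.00146), and its call was lost without IgG replicate 2 (log2 -0.52, limma adjusted p = 0.0698). Efnb1, the X-linked member, stood between them at 15.7 and 12.8 FPKM in Cpeb4 against 9.84 and 9.80 FPKM in IgG (log2 0.49, SE 0.13, limma adjusted p = 0.00449). Its call was lost without either IgG library (limma adjusted p = 0.0873 without replicate 1 and 0.0930 without replicate 2) and under each of the other 4 scalings.

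The class A ephrins are held to the membrane by a glycosylphosphatidylinositol (GPI) anchor. Of these, 4 of 5 were higher and none lower (38.8% and 11.6% of all tested genes). Efna2, which is known to restrain progenitor proliferation in the adult neurogenic zone, was at 30.1 and 25.9 FPKM in Cpeb4 libraries against 15.3 and 13.5 FPKM in IgG (log2 0.91, SE 0.12, limma adjusted p = 1.24e-05). Efna5, a repellent in topographic mapping, was at 6.92 and 9.78 FPKM in Cpeb4 against 4.27 and 3.90 FPKM in IgG (log2 0.86, SE 0.15, limma adjusted p = 0.000134). In these 2 genes all Cpeb4 values lay above all IgG values, and the calls held under every scaling. Efna1 and Efna3 had smaller changes of 0.43 and 0.35 (limma adjusted p = 0.0188 and 0.0282) and lost their calls under each of the other 4 scalings and without either IgG library (limma adjusted p between 0.0747 and 0.273). Efna4 overlapped between antibodies and was not called at -0.10 (limma adjusted p = 0.615). Efna1, Efna3 and Efna4 are neighbours on chromosome 3, between positions 89271730 and 89338028 (GRCm38).

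Eph receptors fall into class A and class B. Of 7 class A receptors tested, 3 were higher and none lower, and of 5 class B receptors none was higher and 1 was lower. Among all tested genes 38.8% were higher and 11.6% lower. The difference between the classes was not tested. Epha3, a receptor that prefers class A ephrins, had the largest change of any member. It was at 10.9 and 14.9 FPKM in Cpeb4 libraries against 4.01 and 4.07 FPKM in IgG, which is 2.73-fold higher after adding 1 FPKM (log2 1.45, SE 0.14, limma adjusted p = 3.90e-07). The gene lies on chromosome 16 from 63543532 to 63864175. Epha4, which binds ephrins of both classes and was the most abundant Eph receptor, was at 60.04 and 67.0 FPKM in Cpeb4 against 35.7 and 33.5 FPKM in IgG (log2 0.86, SE 0.13, limma adjusted p = 3.62e-05). Epha7, a receptor whose reverse signal through Efna2 has been studied in neurogenic zones, was at 27.9 and 32.4 FPKM in Cpeb4 against 16.2 and 15.3 FPKM in IgG (log2 0.90, SE 0.13, limma adjusted p = 2.11e-05). With the trend on gene length and level removed, only Epha3 of these 3 kept its call. Removing it also moved the median of all tested genes, from 0.19 to -0.04 on the log2 scale. Epha4 was then at log2 0.15 (limma adjusted p = 0.323) and Epha7 at 0.26 (limma adjusted p = 0.0938). For all 3 receptors the Cpeb4 value of experiment 2 was the highest of the 4 libraries.

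The remaining class A receptors were not called. Epha6 was at 4.15 and 4.11 FPKM in Cpeb4 against 2.94 and 3.16 FPKM in IgG, just outside the threshold (log2 0.34, SE 0.14, limma adjusted p = 0.0505), and it was called higher without the experiment block. Epha5, Epha8 and Epha10, the last a receptor with an inactive kinase domain, had log2 fold changes of 0.20, -0.03 and -0.19. Among the class B receptors, Ephb3 was at 11.1 and 9.24 FPKM in Cpeb4 libraries against 17.3 and 16.5 FPKM in IgG. Both Cpeb4 values lay below both IgG values, and the gene was called lower (log2 -0.69, SE 0.12, limma adjusted p = 0.000220). It stayed lower under every scaling, as every lower call did. The gene lies on chromosome 16 from 21204620 to 21223309. Ephb1, the most abundant class B receptor, was at 36.4 and 33.3 FPKM in Cpeb4 against 34.9 and 37.6 FPKM in IgG, so that the antibodies overlapped (log2 -0.06, SE 0.12). Ephb2, also studied in V-SVZ neuroblasts, was at 3.40 and 3.62 FPKM in Cpeb4 against 2.99 and 3.35 FPKM in IgG and was not called (log2 0.12, SE 0.14, limma adjusted p = 0.521). Ephb4, the vascular receptor of Efnb2, and Ephb6, which lacks kinase activity, were at -0.29 and -0.05 and were not called.

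Semaphorins are the largest ligand family in the set, with 19 tested, of which 7 were higher (36.8%) and 3 lower (15.8%). The share of higher semaphorins was near that of all tested genes (38.8% higher and 11.6% lower). Of the 6 secreted class 3 semaphorins tested, 4 were higher and none lower. Sema3a, the founding repellent that acts through Nrp1, was at 8.56 and 12.1 FPKM in Cpeb4 libraries against 4.74 and 4.58 FPKM in IgG (log2 0.98, SE 0.14, limma adjusted p = 2.64e-05). Sema3c, a class member with attractive as well as repulsive actions on cortical axons, was at 7.98 and 10.7 FPKM in Cpeb4 against 4.47 and 3.64 FPKM in IgG (log2 1.02, SE 0.15, limma adjusted p = 3.24e-05). Sema3d, another secreted member, was at 3.98 and 5.85 FPKM in Cpeb4 against 1.97 and 1.78 FPKM in IgG (log2 1.03, SE 0.16, limma adjusted p = 5.24e-05). Sema3e, which binds Plxnd1 without a neuropilin, was at 6.30 and 8.55 FPKM in Cpeb4 against 3.46 and 3.34 FPKM in IgG (log2 0.92, SE 0.14, limma adjusted p = 5.03e-05). In each of these 4 genes both Cpeb4 libraries exceeded both IgG libraries, and the Cpeb4 library of experiment 2 stood above that of experiment 1. All 4 calls held under every scaling.

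Sema3f and Sema3b, the other tested members of the class, were not called. Sema3f, a ligand of Nrp2, was at 10.8 and 8.52 FPKM in Cpeb4 against 10.4 and 10.7 FPKM in IgG (log2 -0.13, SE 0.13, limma adjusted p = 0.430). Sema3b was at 1.84 and 1.13 FPKM in Cpeb4 against 1.15 and 1.23 FPKM in IgG (log2 0.17, SE 0.18, limma adjusted p = 0.462). The 2 groups also differ in position: Sema3a, Sema3c, Sema3d and Sema3e all lie on chromosome 5 between 12383161 and 17730268, and Sema3b and Sema3f lie on chromosome 9 between 107597674 and 107710475. They differ in length as well. The gene length implied by the FPKM and the reads was 5500 to 6873 bases for Sema3a, Sema3c, Sema3d and Sema3e. It was 3439 bases for Sema3b and 3401 for Sema3f. With the trend on gene length and level removed, Sema3a, Sema3c, Sema3d and Sema3e kept their calls. The difference between the groups was not tested, because it was noticed in these values.

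The membrane-bound semaphorins showed a mixed pattern. Sema5a, a transmembrane semaphorin with thrombospondin repeats, was at 11.4 and 14.3 FPKM in Cpeb4 against 5.67 and 6.75 FPKM in IgG (log2 0.94, SE 0.12, limma adjusted p = 1.16e-05), and its call held under every scaling. Its paralog Sema5b, the most abundant semaphorin, was at 39.2 and 31.0 FPKM in Cpeb4 against 39.3 and 39.4 FPKM in IgG and was not called (log2 -0.17, SE 0.13, limma adjusted p = 0.287). Of the 6 class 4 semaphorins, which cross the membrane, 1 was higher and 2 were lower (38.8% and 11.6% of all tested genes). Sema4c, a ligand of Plxnb2, was at 14.4 and 12.6 FPKM in Cpeb4 against 17.9 and 20.01 FPKM in IgG (log2 -0.46, SE 0.13, limma adjusted p = 0.00664), and Sema4f was at 5.71 and 5.08 FPKM in Cpeb4 against 7.36 and 7.06 FPKM in IgG (log2 -0.36, SE 0.13, limma adjusted p = 0.0275). Sema4d, the ligand of Plxnb1, went the other way at 10.5 and 9.16 FPKM in Cpeb4 against 6.85 and 7.44 FPKM in IgG (log2 0.41, SE 0.13, limma adjusted p = 0.0148), but by read totals its log2 fold change was -0.050, and its call was lost without either IgG library (limma adjusted p = 0.179 without replicate 1 and 0.0905 without replicate 2). Sema4a, Sema4b and Sema4g were at -0.09, -0.0029 and -0.10 and were not called.

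Class 6 semaphorins bind class A plexins and can themselves act as receptors. Sema6b was at 23.5 and 20.4 FPKM in Cpeb4 against 27.5 and 27.4 FPKM in IgG, a small decrease (log2 -0.31, SE 0.12, limma adjusted p = 0.0440). Sema6a was at 27.6 and 28.2 FPKM in Cpeb4 against 21.8 and 22.3 FPKM in IgG (log2 0.33, SE 0.12, limma adjusted p = 0.0324). Its groups did not overlap, but its direction was set by the scaling, with -0.17 by read totals and -0.31, then called lower, with the length and level trend removed, and its call was lost without either IgG library (limma adjusted p = 0.236 and 0.199). Sema6c and Sema6d were at -0.16 and 0.16, and the GPI-anchored Sema7a at 0.19, all without a call. The calls of Sema4c, Sema4f and Sema6b were lost without IgG replicate 1 and again without IgG replicate 2 (limma adjusted p between 0.0536 and 0.257 and between 0.145 and 0.253), in fits without the block. Sema6b also lost its call without Cpeb4 replicate 2 (limma adjusted p = 0.0662).

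Plexins and neuropilins, the semaphorin receptors, held 11 tested members, of which 4 were higher (36.4%) and 1 lower (9.09%). These shares were near the 38.8% and 11.6% of all tested genes. Nrp1, the co-receptor of Sema3a and of vascular endothelial growth factor, had the second largest change of all members. It was at 14.7 and 15.2 FPKM in Cpeb4 libraries against 6.12 and 6.32 FPKM in IgG, with little spread within either antibody (log2 1.14, SE 0.12, limma adjusted p = 1.52e-06), and the call held under every scaling. The gene lies on chromosome 8 from 128358591 to 128505476. Nrp2, the co-receptor of Sema3f, was at 2.47 and 2.28 FPKM in Cpeb4 against 2.65 and 2.94 FPKM in IgG and was not called (log2 -0.17, SE 0.15, limma adjusted p = 0.363). Set side by side, Nrp1 and its ligand Sema3a were both called higher, and Nrp2 and its ligand Sema3f were both not called. Other pairs had like or unlike calls. With the authors' scaling, Slit2 was higher with Robo1 and Robo2, Efna2 was higher with Epha7, and Efnb3 was lower with Ephb3. Efnb2 was higher where Ephb2 was not called, and Slit1 was not called where Robo1 and Robo2 were higher. Sema4d was higher and its receptor Plxnb1 lower, and Sema3e, Plxnc1 and Dcc were higher where their partners Plxnd1, Sema7a and Ntn1 were not called. Whether the pairs differ was not tested.

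Class A plexins carry the signal of neuropilins and of class 6 semaphorins. Plxna2 was at 28.7 and 30.7 FPKM in Cpeb4 against 20.6 and 23.5 FPKM in IgG (log2 0.41, SE 0.12, limma adjusted p = 0.00950), and Plxna1 at 18.7 and 17.4 FPKM in Cpeb4 against 12.9 and 13.99 FPKM in IgG (log2 0.40, SE 0.12, limma adjusted p = 0.0131). Both had non-overlapping groups, and both changed sign by read totals, to -0.084 for Plxna1 and -0.082 for Plxna2. Their calls were lost without either IgG library (limma adjusted p between 0.0707 and 0.225). Plxna3 and Plxna4 were at -0.30 and 0.14 and were not called. Plxnc1, the receptor of Sema7a, was at 21.6 and 23.9 FPKM in Cpeb4 against 14.1 and 15.1 FPKM in IgG (log2 0.60, SE 0.12, limma adjusted p = 0.000585), but at -0.0074 with the length and level trend removed (limma adjusted p = 0.967). Class B plexins, receptors of class 4 semaphorins, were lower or not called. Plxnb1 was at 28.8 and 26.6 FPKM in Cpeb4 against 35.4 and 43.8 FPKM in IgG (log2 -0.49, SE 0.13, limma adjusted p = 0.00540), a call lost without IgG replicate 2 (log2 -0.34, limma adjusted p = 0.210). Plxnb2, known for its part in neuroblast proliferation and migration and the most abundant member of the whole set, was at 68.5 and 60.1 FPKM in Cpeb4 against 70.3 and 77.4 FPKM in IgG. Its Cpeb4 values lay below its IgG values, but it was not called (log2 -0.20, SE 0.13, limma adjusted p = 0.229). Plxnb3 and Plxnd1 were at -0.19 and 0.18 and were not called.

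Slits and Robos form the repulsive system best known for steering V-SVZ neuroblasts. Of 6 tested, 3 were higher and 1 was lower (38.8% and 11.6% of all tested genes). Robo2 was at 31.2 and 39.8 FPKM in Cpeb4 libraries against 20.1 and 19.6 FPKM in IgG (log2 0.80, SE 0.13, limma adjusted p = 9.16e-05), and Robo1 at 9.55 and 12.6 FPKM in Cpeb4 against 5.71 and 7.36 FPKM in IgG (log2 0.68, SE 0.12, limma adjusted p = 0.000277). These Slit receptors are neighbours on chromosome 16, from 72027518 to 73047491 for Robo1 and from 73891976 to 75447443 for Robo2. Their groups did not overlap, while by read totals their log2 fold changes were 0.22 and 0.30 for Robo1 and Robo2 and neither was called. Robo1 also lost its call without IgG replicate 1 (log2 0.52, limma adjusted p = 0.0846), and with the length and level trend removed Robo1 was at 0.21 and Robo2 at 0.16 (limma adjusted p = 0.198 and 0.311). The ligand Slit2 was higher at 3.58 and 4.53 FPKM in Cpeb4 against 2.47 and 2.75 FPKM in IgG (log2 0.48, SE 0.14, limma adjusted p = 0.00976), a call lost under each of the other 4 scalings and without either IgG library (limma adjusted p = 0.136 without replicate 1 and 0.0687 without replicate 2). The more abundant Slit1, which neuroblasts themselves are known to make, was at 8.80 and 6.91 FPKM in Cpeb4 against 9.61 and 9.88 FPKM in IgG and was not called (log2 -0.29, SE 0.13, limma adjusted p = 0.0808). Slit3 was at -0.12 and not called.

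Robo4, the endothelial member of the family, had the largest decrease of any member. It was at 0.638 and 0.661 FPKM in Cpeb4 libraries against 2.017 and 2.002 FPKM in IgG (log2 -0.87, SE 0.17, limma adjusted p = 0.000422). The call held under every scaling, as every lower call did, and Robo4 was not tested where a mean of 2 FPKM was asked. The gene entered the test through its IgG values alone, so it could only have been lower, and its level was low, with 97 and 65 reads in the Cpeb4 libraries against 290 and 269 in the IgG libraries. Of 5 endothelial and mural markers, 1 was higher (Rgs5, log2 0.96) and none lower (38.8% and 11.6% of all tested genes). Their summed level was 79.1 and 78.2 FPKM in Cpeb4 against 58.9 and 57.0 FPKM in IgG. Within that sum, Rgs5 was at 34.5 and 44.1 FPKM in Cpeb4 against 19.3 and 19.7 FPKM in IgG. The endothelial markers Pecam1, Cldn5 and Flt1 were at log2 0.06, 0.12 and -0.30, none called. Their part in the Robo4 value was not tested.

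Among the netrins and their receptors, 3 of 8 tested were higher (37.5%; 38.8% of all tested genes) and none lower (11.6% of all tested genes). Ntn4, a netrin related to laminins and found in basement membranes, was at 26.9 and 27.3 FPKM in Cpeb4 libraries against 15.01 and 13.8 FPKM in IgG (log2 0.87, SE 0.12, limma adjusted p = 2.10e-05; chromosome 10 from 93641049 to 93745972), and this call held under every scaling. Ntn1, the attractant read by Dcc, was at 12.5 and 12.4 FPKM in Cpeb4 against 12.3 and 14.6 FPKM in IgG and was not called (log2 -0.10, SE 0.13, limma adjusted p = 0.556). Dcc itself was at 7.53 and 8.22 FPKM in Cpeb4 against 5.999 and 6.145 FPKM in IgG, with a small change (log2 0.33, SE 0.13, limma adjusted p = 0.0419) that turned to -0.12 by read totals and lost its call without any 1 library other than Cpeb4 replicate 1 (limma adjusted p = 0.0531 without Cpeb4 replicate 2, 0.230 without IgG replicate 1 and 0.193 without IgG replicate 2). Of the repulsive Unc5 receptors, Unc5d was higher at 4.92 and 6.45 FPKM in Cpeb4 against 3.25 and 3.22 FPKM in IgG (log2 0.65, SE 0.14, limma adjusted p = 0.00113), and at 0.34 with the length and level trend removed (limma adjusted p = 0.0605). Unc5c had groups that did not overlap, at 1.69 and 2.24 FPKM in Cpeb4 against 1.16 and 1.33 FPKM in IgG, and just missed the threshold (log2 0.39, SE 0.16, limma adjusted p = 0.0525). Unc5a and Unc5b were at 0.04 and -0.25, and the GPI-anchored netrin Ntng1 at 0.22, all not called.

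Ligands and receptors were then set side by side. Of 33 ligands tested, 15 were higher (45.5%) and 4 lower (12.1%), with a median log2 fold change of 0.19. Among 31 receptors, 11 were higher (35.5%) and 3 lower (9.68%), with a median of 0.14. Against 38.8% higher and 11.6% lower among all tested genes, neither role stood far from the background, and members are not replicates, so the difference between roles is given as a description. Under each of the other 4 scalings 9 ligands were higher, against 4 by read totals, 5 by upper quartile, 8 by trimmed mean of M-values and 8 by median centring for receptors. The receptors were the longer and more abundant genes, with median implied lengths of 6405 bases for receptors against 4490 for ligands and median levels of 13.4 FPKM for receptors against 8.80 FPKM for ligands. The ligands were also grouped by how the cue is presented. Of 11 secreted ligands tested, 6 were higher and none lower, with a median of 0.48, and of 7 GPI-anchored ligands 4 were higher and none lower, with a median of 0.35. Of 15 transmembrane ligands, 5 were higher and 4 lower, with a median of -0.09. This grouping was made after the values had been seen, and no test was run on it.

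**Figure D3:**
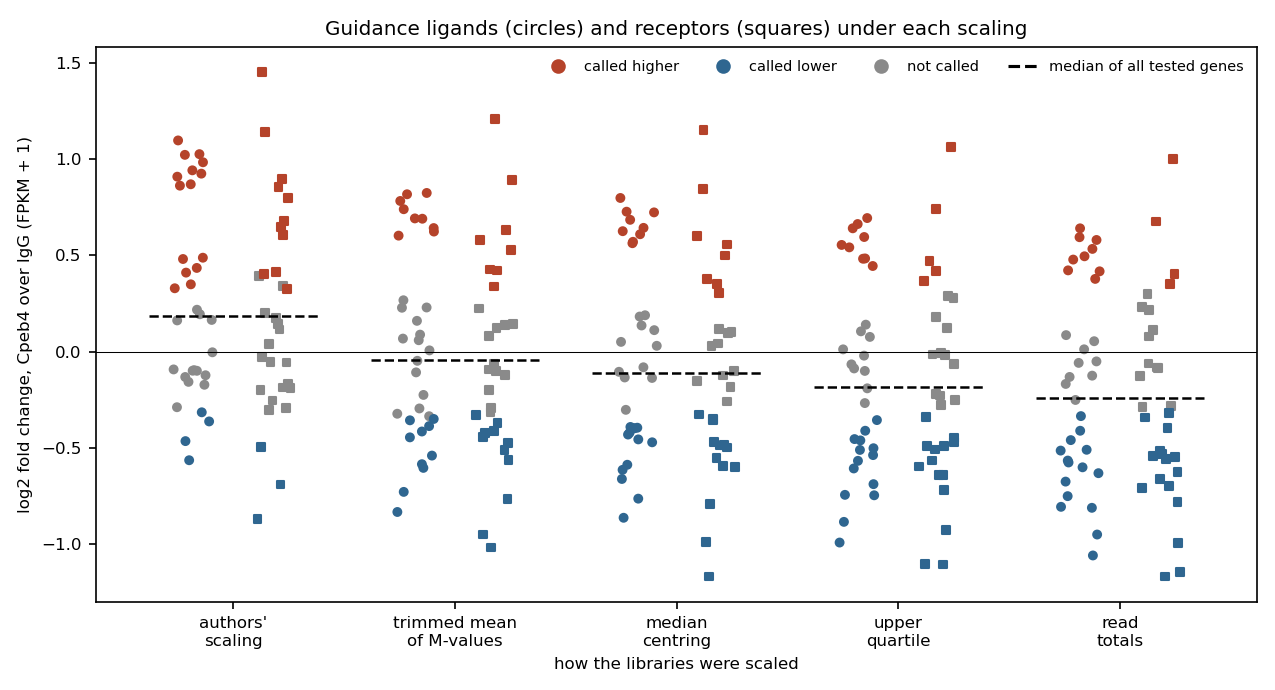
Log2 fold change of Cpeb4 over IgG of the 64 tested members under 5 scalings of the libraries, with ligands as circles left and receptors as squares right of each tick, coloured by the limma call; dashes mark the median of all tested genes, from 0.19 with the authors' scaling to -0.24 by read totals. The points shift down together, so 26 members were called higher and 7 lower with the authors' scaling and 13 higher and 31 lower by read totals.

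Gene length and level varied widely among the members. The gene length implied by the FPKM and the reads ran from 1602 bases for Efna4 to 12899 for Plxna4, and mean levels of tested members from 1.16 to 69.1 FPKM. Across the 64 members, the log2 fold change had a Pearson correlation of 0.14 with log2 length and 0.05 with the mean of log2(FPKM + 1). Over 15633 tested genes with a length the same values were 0.33 and 0.32. These are correlations across genes measured in the same libraries, given as a description. With the transcriptome-wide trend on length and level removed, 12 members were higher, 10 of them ligands and 2 of them receptors (Epha3 and Nrp1), and 27 were lower (23.9% higher and 25.4% lower among all genes tested that way). Epha4, Epha7, Robo1, Robo2, Slit2 and Plxnc1 were among the 14 that lost their call in that fit. The same fit moved the median log2 fold change of all tested genes from 0.19 to -0.04. How far this common shift, rather than length or level, accounts for the lost calls was not tested.

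**Figure D4:**
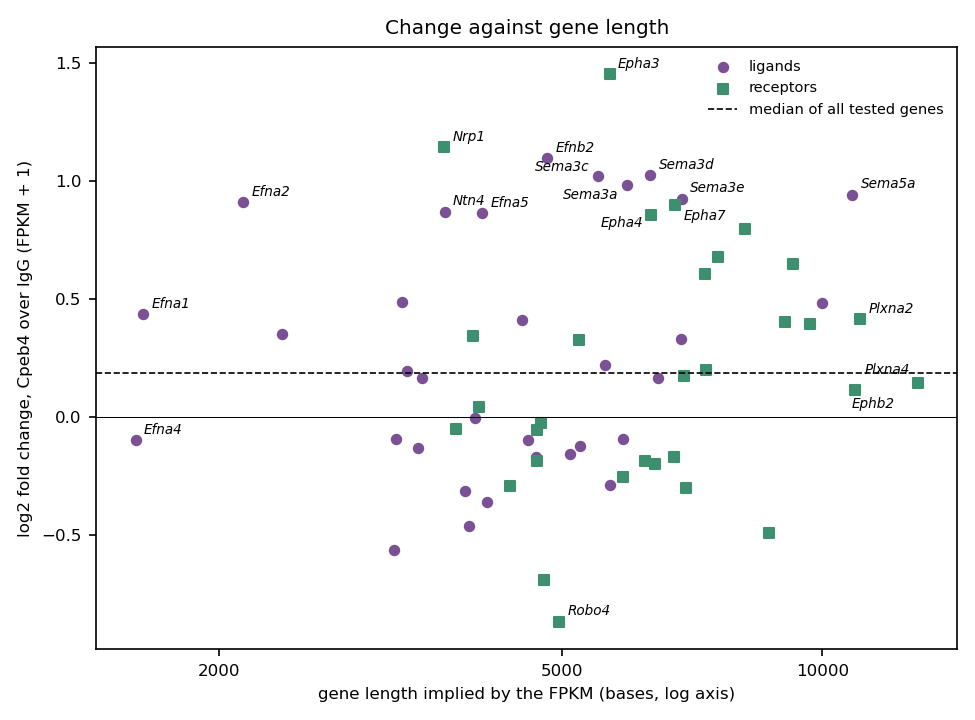
Log2 fold change of Cpeb4 over IgG against the implied gene length, on a log axis, for the 64 tested members, with ligands as circles and receptors as squares. High and low values occur at most lengths: Efna2 (2135 bases) and Sema5a (10828 bases) had log2 fold changes of 0.91 and 0.94, and Ephb3 (4756 bases) and Efnb2 (4801 bases) of -0.69 and 1.10.

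In position, 33 of the 70 members overlap another annotated locus, with symbols of microRNAs and small nucleolar RNAs not counted. The cDNA kit does not mark strand. Reads in such overlaps cannot be assigned to a strand, for example between Plxna4 and its antisense transcript Plxna4os1. The experiments ranked the members alike, with a Pearson correlation of 0.92 between the log2 fold changes of experiment 1 and experiment 2 across the 64 members. The sign was the same in both experiments for 51 members (79.7%), against 83.4% of all tested genes.

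In the authors' deposited table, which rests on the same libraries and is not independent, 22 of the 64 tested members were higher (34.4%) and 5 lower (7.81%) at the 0.05 threshold. Of the 15290 genes tested here that have an adjusted p in the authors' deposited table, 31.9% were higher and 5.25% lower. Both analyses called 21 of the 26 members given here as higher and 5 of the 7 given as lower, and none was opposite. Efna1, Efna3, Dcc, Sema4d and Sema6a were not called higher there (adjusted p between 0.0546 and 0.230 in the authors' deposited table), nor Sema4f and Sema6b lower (between 0.0938 and 0.112). Unc5c was higher in the authors' deposited table, at a log2 fold change of 0.64 (SE 0.23, adjusted p = 0.0215). The same table gave a log2 fold change of 1.65 (SE 0.19) for Epha3 and 1.12 (SE 0.20) for Sema3a, larger than on the log2(FPKM + 1) scale, which understates changes of genes with low values.

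Other genes of these pathways were described from lists. Of 35 further guidance cues and receptors tested, 20 were higher (57.1%), 3 lower (8.57%) and 12 not called, with a median of 0.50, against 38.8% higher, 11.6% lower and a median of 0.19 over all tested genes. Under all 5 scalings 9 were higher (25.7%) and 3 lower (8.57%), against 17.3% and 11.6% of all tested genes. The list was put together with results of these data known, and nothing is read from its share. Flrt2, a ligand of Unc5 receptors, was at 40.2 and 55.4 FPKM in Cpeb4 libraries against 11.9 and 12.4 FPKM in IgG (log2 1.88, SE 0.13), and its relative Flrt3 at 53.1 and 64.8 FPKM in Cpeb4 against 18.2 and 17.5 FPKM in IgG (log2 1.66, SE 0.13). Fzd3, a receptor needed for the growth of axon tracts, was at 54.0 and 69.0 FPKM in Cpeb4 against 17.3 and 15.2 FPKM in IgG (log2 1.85, SE 0.14). The limma adjusted p of these 3 lay between 5.51e-08 and 8.65e-08. Celsr3, an atypical cadherin that works with Fzd3, was lower at 4.04 and 3.72 FPKM in Cpeb4 against 6.01 and 7.62 FPKM in IgG (log2 -0.67, SE 0.14, limma adjusted p = 0.000795). The chemokine receptor Cxcr4 and the adhesion molecule L1cam were also lower, at log2 -0.48 and -0.33 (limma adjusted p = 0.0126 and 0.0411).

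A further list held mostly intracellular effectors that carry guidance signals to the cytoskeleton. Of 66 tested, 27 were higher (40.9%), 1 lower (1.52%) and 38 not called, with a median of 0.24. The higher ones included Dcx (log2 1.56), also counted among the neuroblast markers above, and Plxdc2 (log2 0.95), a transmembrane protein. The share of higher genes was near the 38.8% of all tested genes, of which 11.6% were lower. Under all 5 scalings 14 were higher (21.2%; 17.3% of all tested genes). The kinases Pak3 and Pak2 and the small GTPase Cdc42 that activates them had the largest changes. Pak3 was at 46.1 and 55.9 FPKM in Cpeb4 libraries against 14.3 and 14.1 FPKM in IgG (log2 1.77, SE 0.13), Pak2 at 33.8 and 39.5 FPKM in Cpeb4 against 10.9 and 10.6 FPKM in IgG (log2 1.68, SE 0.12) and Cdc42 at 373 and 425 FPKM in Cpeb4 against 129 and 125 FPKM in IgG (log2 1.64, SE 0.14). The lower member was Mical1, a plexin-associated oxidoreductase that disassembles actin filaments, at log2 -0.40 (SE 0.13, limma adjusted p = 0.0198). The calls of Pak3, Pak2 and Cdc42 held under every scaling, and that of Mical1 also held, as every lower call did.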

How the data were processed

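Per the labels' protocols, precipitation used the MAGNA RIP kit, cDNA came from SMART-Seq v4 low input reagents, which do not mark strand, and sequencing libraries from Nextera XT. The mm10 build, DESeq2 1.26.0, HTSeq 0.6.1p2, STAR 2.6.0c, Trim Galore 0.5.0 and FastQC 0.11.5 are listed, with no role or setting, in the submitters' processing notes. The deposited table gives FPKM per library for 53379 genes. Per the file headers, it also gives the authors' mean level (a signal, reads divided by size factors), log2 fold change, its standard error and test score, and p-value with adjusted p-value.

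FPKM steps joined to the authors' mean level returned whole reads (100% of values, tolerance 0.01 read); this recovery and the test were checked on simulated data. Amplified reads without molecular identifiers are not independent molecules. Genes at 1 FPKM or more in 2 or more libraries entered limma 3.58.1 (R 4.3.3) as log2(FPKM + 1), with a trended prior, two-sided, with experiment as a block and Benjamini-Hochberg adjustment over all 15745 genes (threshold 0.05). The block left 1 residual degree of freedom; the prior added 14.6. Experiment numbers come from the labels; deviations of same-numbered libraries correlated at 0.0024. Replicate pairs differed beyond sampling noise (chi-square per degree of freedom 27.6 for Cpeb4, 6.25 for IgG).

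Members and lists were chosen with earlier results of these data known. Values in every library are given for up to 4 higher and 3 lower members per family by log2 fold change, the most abundant member, and known V-SVZ pairs; Sema3e, Sema3b, Sema3f, Sema4d, Sema6a, Epha6, Ephb1 and Unc5c were added after their values were seen. Positions are from RefSeq, GRCm38.p6, matched by symbol for all 70 members. Motifs of 3′ untranslated regions were not analysed here. Columns from other series numbered 0 in the table.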

Additional observations from a re-analysis of the deposited data

How the results depend on the processing

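Members called higher (26 with the authors' scaling) numbered 13 by read totals, 14 by upper quartile, 17 by trimmed mean of M-values, 17 by median centring, 16 with no filter on low values, 12 with the length and level trend removed, and 16 to 30 with 1 library left out. Members called lower (7) numbered 31, 28, 21, 26, 3 and 27 under the same settings, 11 with limma-voom on the recovered reads, and 2 to 15 with 1 library left out. Higher ligands (15) numbered 9 under each other scaling and with no filter, and 9 to 16 with 1 library left out. Higher receptors (11) numbered 4 by read totals, 5 by upper quartile, 7 with no filter, 2 with the trend removed, and 7 to 14 with 1 library left out. Over all tested genes, the higher calls (6106) numbered 2759, 3088, 4029, 3607, 3915 and 3741 and the lower calls (1822) 6670, 5821, 4024, 4857, 875 and 3971 under the same 6 settings, with 3977 to 6534 and 867 to 2497 with 1 library left out. The scalings move all genes of a library together; with no filter more genes are tested; for the other settings the cause was not tested.

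Counted over all tested members, the log2 fold change turned negative for 16 by read totals, 15 by upper quartile, 7 by trimmed mean of M-values, 9 by median centring and 12 with the trend removed. Of these, the members called in at least 1 of the 2 fits compared were, by read totals, Efna3 (-0.13), Dcc (-0.12), Unc5a (-0.40), Plxna1 (-0.084), Plxna2 (-0.082), Plxna4 (-0.34), Plxnd1 (-0.32), Sema4d (-0.050), Sema6a (-0.17) and Sema6d (-0.33), and by upper quartile Efna3 (-0.066), Dcc (-0.063), Unc5a (-0.34), Plxna1 (-0.018), Plxna2 (-0.015) and Sema6a (-0.10). With the trend removed they were Epha5 (-0.38), Dcc (-0.065), Plxna1 (-0.18), Plxna2 (-0.18), Plxna4 (-0.38), Plxnc1 (-0.0074), Plxnd1 (-0.46), Sema6a (-0.31, then called lower) and Sema6d (-0.47). The remaining sign changes were of members called in neither fit: Epha5, Epha6, Ephb2, Ntng1, Sema3b and Sema7a by read totals, these 6 with Plxna4, Plxnd1 and Sema6d by upper quartile, Ephb2, Unc5a and Sema7a with the trend removed, and all 7 and 9 by trimmed mean of M-values and median centring.

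Without the replicate block 27 members were higher and 7 lower; Epha6 was added and no call was lost. Without IgG replicate 1 or IgG replicate 2, 10 and 9 of the 26 higher calls and 3 and 5 of the 7 lower ones were lost. Without Cpeb4 replicate 2, Dcc and Sema6b lost theirs, and without Cpeb4 replicate 1 no call was lost. These fits have no block and take the spread from the complete pair, which was wider for Cpeb4, and the lone library is assumed to vary like it. With n = 2 per antibody and 1 residual degree of freedom, single calls near the threshold, such as those of Dcc, Sema6b and Epha6, are weakly determined.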
